A study of Caenorhabditis elegans with 6 samples.

Results

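ATP-binding cassette (ABC) transporters were compared between wild-type *C. elegans* of strain PMD121 and *nhr-49(nr2041)* mutants of strain PMD122. The family was taken by symbol: genes named *pgp-*, *mrp-*, *haf-*, *abt-*, *wht-*, *pmp-* or *abcf-* and read in at least 1 library. This rule found 54 genes among the 19579 genes with any read. They were 15 *pgp*, 8 *mrp*, 8 *haf*, 6 *abt*, 9 *wht*, 5 *pmp* and 3 *abcf* genes. *abt-3*, *abt-6*, *pgp-15* and *wht-9* are annotated as pseudogenes in RefSeq's gene table.

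Polyadenylated RNA from whole late L4 larvae was sequenced in 6 libraries, 3 labelled biological replicates per genotype. All animals were raised from hatching on HT115 bacteria carrying the empty RNAi vector, so both genotypes received the control RNAi treatment. *nr2041* is a deletion allele of *nhr-49*, a nuclear hormone receptor that regulates fat metabolism and the response to fasting. The strains came from a cross of N2 with STE68, and each genotype is represented by 1 strain, so effects of the allele and of other differences between the strains cannot be told apart. Values are RPKM, reads scaled to transcript length in kilobases and to the library total, which put genes of different length on a common scale.

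ABC proteins bind and hydrolyse ATP, and most use it to move substrates across a membrane. The PGP proteins are P-glycoproteins, full transporters of the ABCB class known for drug and toxin efflux, and several act in the intestine. The MRP proteins (ABCC class) export conjugated and charged compounds. HAF proteins are related to the ABCB class but hold a single membrane and ATP-binding unit, so that they work in pairs, several of them in mitochondria or lysosome-related organelles. ABT proteins belong to the ABCA class of lipid transporters, and WHT proteins to the ABCG class named for the *Drosophila* White protein. PMP proteins are single-unit transporters of the ABCD class, whose best known members carry acyl-CoA into peroxisomes for β-oxidation. The ABCF proteins have no membrane-spanning domain and are linked to translation.

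Total reads per library, as implied by the RPKM values, were 24523159 to 30183162. *nhr-49* itself read 39.4, 40.8 and 37.8 RPKM in wild-type and 26.1, 22.1 and 26.1 RPKM in mutants. A value over the whole gene also holds reads from outside a deletion. In a principal component analysis of all genes tested, the first axis (59.4% of the variance) divided the genotypes. Wild-type libraries stood at -35.0 to -22.1 on it, and mutant replicates 1, 2 and 3 at 48.1, 22.9 and 18.8. The second axis (22.4% of the variance) set wild-type replicate 2 and mutant replicate 1, at -32.0 and -19.3, apart from the others, at 4.85 to 24.1. Values without these libraries are given where a result rests on them. The whole-animal libraries held transcripts of intestine, muscle, hypodermis, neurons, pharynx, excretory system, germline and sperm, and no marker gene of these tissues was at 0 in all libraries. In whole animals, fewer cells of a type and less RNA per cell cannot be told apart.

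The subfamilies differed widely in level. The highest member was *abcf-2*, a translation-linked ABC protein, at 180, 190 and 198 RPKM in wild-type and 153, 182 and 193 RPKM in mutants. It made up 15.1% of the summed ABC RPKM. *abcf-2*, *pmp-5*, *haf-9*, *abcf-1*, *haf-4* and *abcf-3*, the 6 members above 50 RPKM, together made up 53.5% of that sum. At the other end, 8 members averaged less than 1 RPKM over the 6 libraries, and 24 were above 10 RPKM.

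Within each subfamily the members differed in level. *pgp-2*, whose product sits on the membrane of lysosome-related gut granules, led the *pgp* genes at 39.2 RPKM over the 6 libraries, against a median *pgp* member of 4.65 RPKM. *mrp-5*, which encodes an exporter of heme, led the *mrp* genes at 39.6 RPKM. *haf-9*, which encodes a transporter of the gut granule membrane, led the *haf* genes at 115 RPKM. *abt-4* led the *abt* genes at 23.1 RPKM, and *wht-2* led the *wht* genes at 14.1 RPKM. The *pgp* and *wht* genes were mostly low, whereas the lowest of the 3 *abcf* genes, *abcf-3*, averaged 72.3 RPKM in wild-type.

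**Figure D1:**
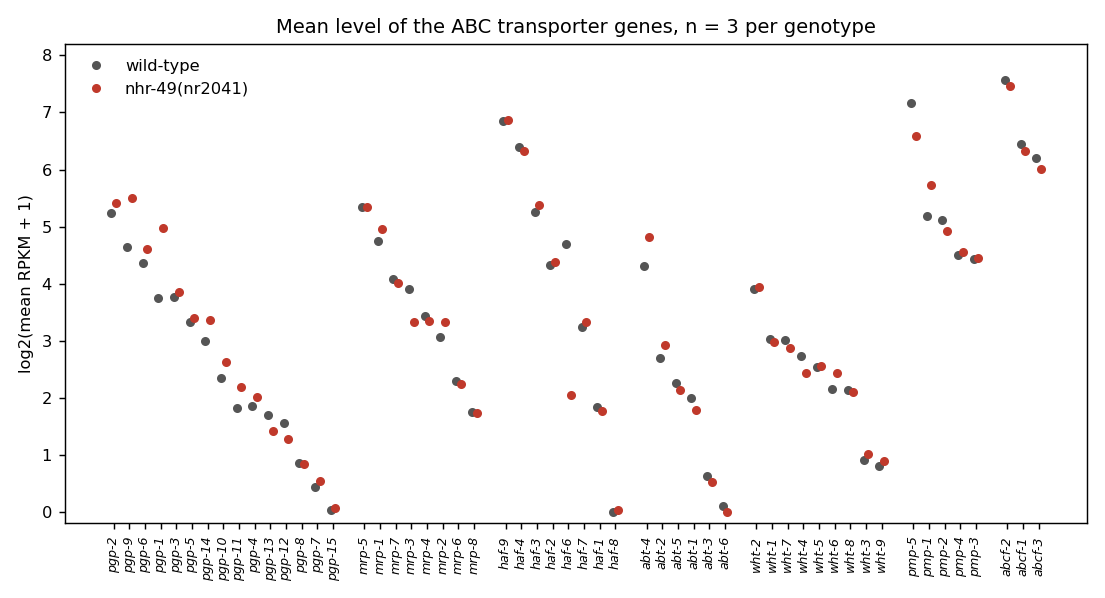
Mean level of each of the 54 ABC transporter genes by subfamily, as log2(mean RPKM + 1), with 3 libraries per genotype (grey, wild-type and red, *nhr-49(nr2041)*). The paired points lie close together for most genes and stand apart for *haf-6*, *pgp-1* and *pgp-9*.

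The summed level of the family was 1178, 1253 and 1246 RPKM in wild-type and 1175, 1198 and 1233 RPKM in mutants, and the ranges overlapped. Differences between genotypes were tested with limma on log2(RPKM + 1) over all genes that reached 1 RPKM in 3 or more libraries. Fold changes are on that scale, mutant over wild-type, which understates changes of low genes. A gene is called changed at a Benjamini-Hochberg adjusted p under 0.05 over all genes tested.

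Of the 54 genes, 48 passed the filter on low values, and 3 of these were called changed. This is 6.25% of those tested, beside 4.13% of all 13965 genes tested. *pgp-1* and *pgp-9* rose in mutants (3.32% of all genes tested did) and *haf-6* fell (0.816% of all genes tested did). The same 3 genes are counted when an absolute log2 fold change above 0.5 is also required, a threshold that 4.12% of all genes tested passed. When library distributions were made equal by quantile normalization or by equal medians, or when limma voom was run on reads recovered from the RPKM, 2 members rose and 3 fell, the added ones being *pmp-5* and *mrp-3*. Over all genes, these fits called 400, 391 and 461 higher in mutants, in that order, beside 463 in the main fit. They called 154, 146 and 120 lower, beside 114 in the main fit. The median log2 fold change over the 48 genes was 0.03, with 27 positive and 21 negative, whereas the median over all genes tested was 0.10 and 67.3% were positive. After quantile normalization the median over all genes tested was -0.04.

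*haf-6* showed the largest difference of the family. It encodes a single-unit transporter required in *C. elegans* for efficient RNA interference, and it lies on chromosome I at 1162880-1175809 of WBcel235. Its level was 24.1, 24.1 and 26.7 RPKM in wild-type and 2.31, 3.68 and 3.45 RPKM in mutants. The wild-type libraries held 1701, 1686 and 1697 reads of *haf-6*, and the mutants 132, 231 and 237 reads. The groups lay far apart, and reads were still assigned to *haf-6* in every mutant library. The mean was 24.98 ± 1.52 RPKM in wild-type and 3.15 ± 0.737 RPKM in mutants (SD, n = 3), 7.94-fold lower in mutants. The log2 fold change by limma was -2.66 with an SE of 0.17 (adjusted p = 8.08e-05), and *haf-6* kept its call under each of 15 alternative settings, with adjusted p no higher than 0.0017.

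Part of the *haf-6* exons overlaps exons of *Y48G8AL.7* on the opposite strand, and whether the counting used strand is not given in the sources used here. *Y48G8AL.7* read between 4.31 and 7.52 RPKM over the 6 libraries and its log2 fold change was -0.12 (limma adjusted p = 0.84). Around *haf-6*, none of 15 tested genes within 100 kb was called by limma at an adjusted p under 0.05. Their log2 fold changes ran from -0.88 to 0.18 with a median of -0.05. *haf-6* lies on the same chromosome as *nhr-49*, 8.69 Mb from it. Chromosome I holds 7 ABC genes, 6 of them tested, and *haf-6* was the only called one. The other 5 had log2 fold changes between -0.08 and 0.23, and *abt-5*, *haf-9*, *pgp-2* and *abt-2* among them lie closer to *nhr-49* than *haf-6* does.

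*pgp-1* and *pgp-9*, both P-glycoproteins, were the called genes that rose. *pgp-1* is an intestinal efflux transporter on chromosome IV (12591704-12599169). Its level was 12.8, 11.7 and 12.6 RPKM in wild-type and 28.4, 31.6 and 31.0 RPKM in mutants. The lowest mutant library was above the highest wild-type library by more than the range within either group. The mean rose from 12.4 ± 0.581 to 30.3 ± 1.73 RPKM (SD, n = 3), a ratio of 2.45, and the log2 fold change by limma was 1.23 with an SE of 0.11 (adjusted p = 4.74e-04).

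*pgp-9*, whose orthologs in parasitic nematodes are studied in anthelmintic resistance, lies on chromosome V (17755892-17764751). It read 21.6, 25.8 and 24.2 RPKM in wild-type and 40.7, 48.5 and 43.6 RPKM in mutants, again without overlap. Its mean was 23.9 ± 2.10 RPKM in wild-type and 44.3 ± 3.95 RPKM in mutants (SD, n = 3), a ratio of 1.86. By limma its log2 fold change was 0.86 with an SE of 0.12 (adjusted p = 0.0053). Leaving out any 1 library kept the call of *pgp-9*, with adjusted p up to 0.037.

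None of 21 tested genes within 100 kb of *pgp-1* was called by limma, although 1 of them reached a log2 fold change of 1.06. Near *pgp-9*, 2 of 11 tested genes were called, and both fell where *pgp-9* rose. These were *fat-5*, a fatty acid desaturase gene 29.1 kb away with a log2 fold change of -3.78, and *dgat-2*, an acyltransferase gene 94.1 kb away at -1.196. The 10 intestinal marker genes measured beside these P-glycoproteins were all tested and none was called, with a mean log2(RPKM + 1) of 6.97 to 7.10 in wild-type and 7.05 to 7.26 in mutants. Markers of 2 other tissues were lower in every mutant library. The mean log2(RPKM + 1) of 6 pharynx markers was 4.42, 4.42 and 4.38 in wild-type and 3.87, 4.22 and 4.18 in mutants, with 1 marker called lower. That of 8 body wall muscle markers was 8.70, 8.75 and 8.70 in wild-type and 7.93, 8.62 and 8.47 in mutants, with none called. For hypodermis, neurons and the excretory system the genotypes overlapped. The part of these tissues in the levels of *haf-6*, *pgp-1* and *pgp-9* was not tested.

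**Figure D2:**
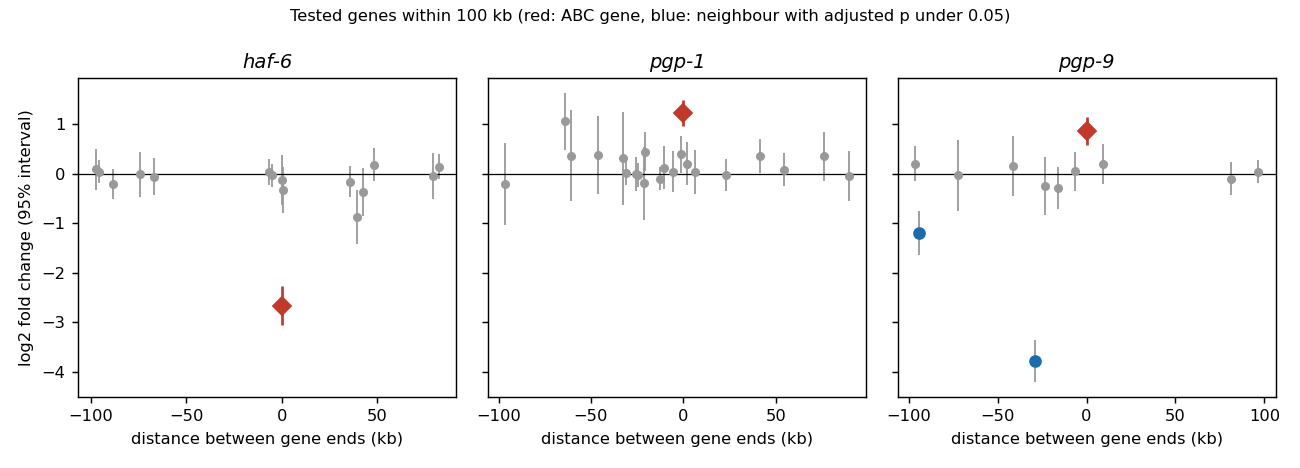
Log2 fold change with its 95% interval (mutant over wild-type, log2(RPKM + 1) scale) of tested genes within 100 kb of *haf-6*, *pgp-1* and *pgp-9*, by distance between gene ends in kb. The ABC gene is a red diamond and called neighbours are blue. Most neighbours lie near 0, with 1 at -0.88 beside *haf-6* and 1 at 1.06 beside *pgp-1*, neither called, and *fat-5* and *dgat-2* lie below 0 beside *pgp-9*.

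Another 4 members had an unadjusted p under 0.05 and no call: *pmp-5* and *mrp-3*, lower in mutants, and *pmp-1* and *abt-4*, higher in mutants. In all 7 members passed the unadjusted threshold, 14.6% of those tested, beside 13.2% of all genes tested, so this share was near the background. *pmp-5*, the second highest ABC gene, encodes a protein of the class of human ABCD4, which exports vitamin B12 from lysosomes. It read 147, 156 and 127 RPKM in wild-type and 108, 84.4 and 94.1 RPKM in mutants, without overlap. Its log2 fold change was -0.58 (limma adjusted p = 0.063), and over the 15 alternatives the adjusted p ran from 0.0041 to 0.25. *pmp-5* passed the threshold without mutant replicate 1, at an adjusted p of 0.025.

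*mrp-3*, an ABCC-class gene, read 15.3, 11.8 and 15.1 RPKM in wild-type and 8.53, 9.32 and 9.36 RPKM in mutants. Its mutant libraries lay close together and below every wild-type library, of which replicate 2 was the lowest. The log2 fold change of *mrp-3* was -0.57 (limma adjusted p = 0.087), and without wild-type replicate 2 its adjusted p was 0.045. It was 0.36 without wild-type replicate 1 and 0.39 without wild-type replicate 3. Over the 15 alternatives it ran from 0.0071 to 0.39. *abt-4*, an ABCA-class gene, read 16.1, 22.7 and 17.9 RPKM in wild-type, with replicate 2 the highest, and 28.7, 27.2 and 25.7 RPKM in mutants. The log2 fold change of *abt-4* was 0.52 (limma adjusted p = 0.14), and without wild-type replicate 2 its adjusted p was likewise 0.045. It was 0.48 without wild-type replicate 1 and 0.47 without wild-type replicate 3. Over the 15 alternatives it ran from 0.0061 to 0.48.

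*pmp-1* read 33.416, 38.001 and 34.365 RPKM in wild-type and 62.035, 48.604 and 44.650 RPKM in mutants, so mutant replicate 1 was the highest. Its log2 fold change was 0.53 (limma adjusted p = 0.12), and over the 15 alternatives the adjusted p ran from 0.014 to 0.41. With both libraries that stand apart left out, 7 members were called: *haf-6*, *pgp-1*, *pgp-9*, *pmp-5*, *mrp-3*, *abt-4* and *pmp-1*. That fit compares 2 libraries with 2, and it called 1300 genes in all.

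**Figure D3:**
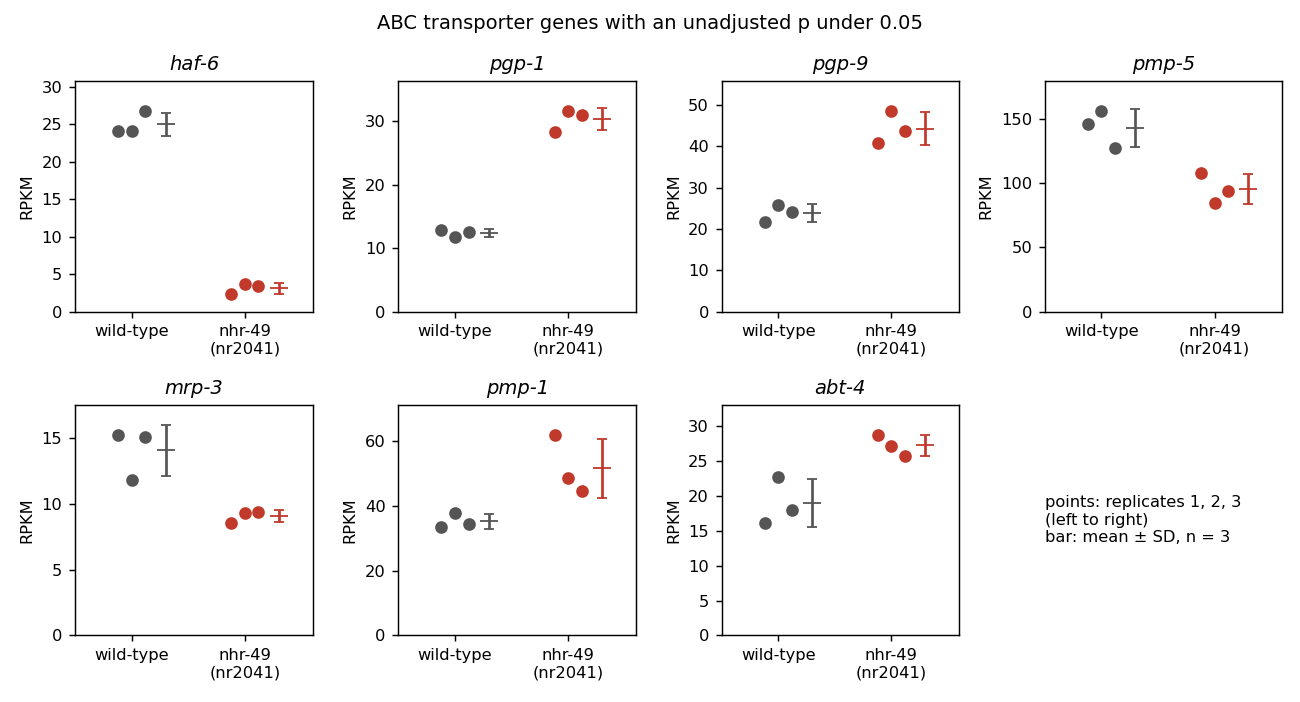
RPKM of the 7 ABC transporter genes with an unadjusted p under 0.05, as points for replicates 1 to 3 and a bar for the mean ± SD (n = 3), wild-type in grey and *nhr-49(nr2041)* in red, each axis starting at 0. The genotypes do not overlap in any panel, and only *haf-6*, *pgp-1* and *pgp-9* passed the adjusted threshold.

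The libraries of the genotypes did not overlap for 11 of the 48 tested members (22.9%), beside 21.4% of all genes tested. All 3 mutant libraries were higher for 8 members (17.6% of all genes tested) and lower for 3 (3.78% of all genes tested). Beyond the 7 genes above, these were *pgp-2*, *pgp-11*, *abt-2* and *mrp-1*, all higher in mutants and none called. *pgp-2* read 37.99, 33.97 and 37.76 RPKM in wild-type and 40.75, 41.20 and 43.55 RPKM in mutants. *mrp-1*, which encodes a pump involved in resistance to arsenite and cadmium, read 23.54, 27.94 and 25.70 RPKM in wild-type and 29.51, 31.96 and 28.75 RPKM in mutants. *abt-2* and *pgp-11* were lower, between 2.35 and 7.07 RPKM. The log2 fold changes of these 4 genes were 0.19 to 0.35, with limma adjusted p of 0.45 to 0.59.

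**Figure D4:**
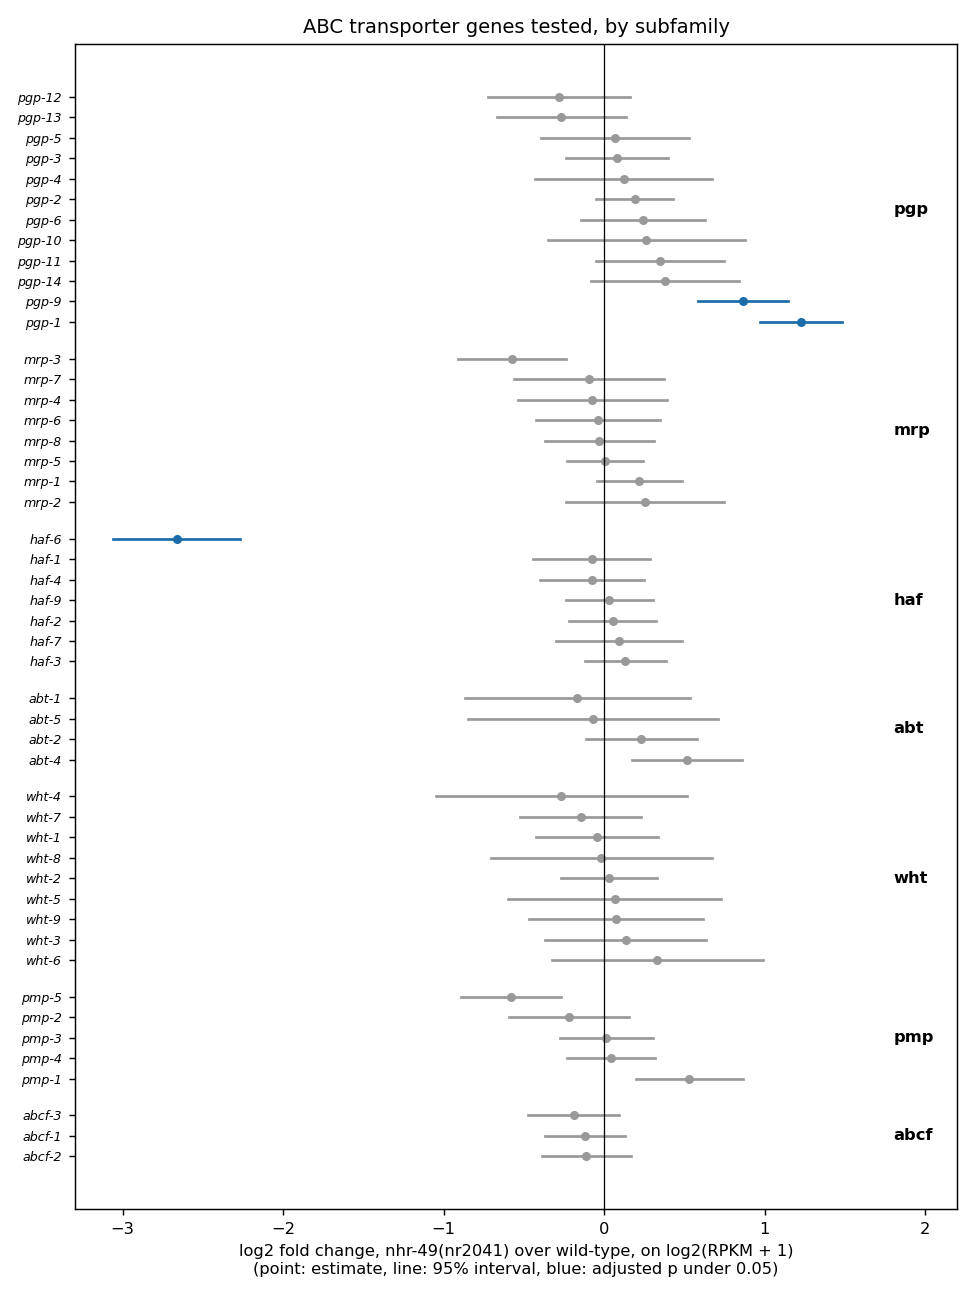
Log2 fold change (mutant over wild-type, log2(RPKM + 1) scale) with its 95% interval for the 48 tested ABC transporter genes, grouped by subfamily, with called genes in blue. Most intervals cross 0, *haf-6* stands at -2.66, and *pgp-1* and *pgp-9* are the only called genes above 0.

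Among the *pgp* genes, 12 of 15 were tested, 2 rose and none fell, where 3.32% and 0.816% of all genes tested did. Their log2 fold changes were positive for 10 and negative for 2, and most of all genes tested were positive as well. The *pgp* median of 0.21 was 0.11 above that of all genes tested, and it was 0.08 after quantile normalization. Summed *pgp* RPKM was 136 ± 8.37 in wild-type and 188 ± 8.14 in mutants (SD, n = 3). Without *pgp-1* and *pgp-9* the sum was 99.4 ± 6.77 and 113.7 ± 11.4 RPKM. *pgp-3*, an intestinal P-glycoprotein gene tied to drug resistance, read 12.54, 13.49 and 11.96 RPKM in wild-type and 15.51, 12.39 and 12.49 RPKM in mutants. *pgp-5* read 7.30, 10.6 and 9.10 RPKM in wild-type and 11.8, 8.86 and 7.86 RPKM in mutants. The genotypes overlapped for both, with log2 fold changes of 0.08 and 0.07 and 95% intervals of -0.24 to 0.39 and -0.39 to 0.53. Among the other tested *pgp* genes, *pgp-12*, expressed in the excretory cell, and its neighbour *pgp-13* had the only negative log2 fold changes, -0.28 and -0.27. *pgp-14*, needed for a lipid barrier of the pharyngeal cuticle and next to *pgp-13*, stood at 0.38. None of these 3 passed (limma adjusted p of 0.48 to 0.60), and *pgp-4*, *pgp-6* and *pgp-10* had log2 fold changes of 0.12 to 0.26.

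The *pgp* genes are concentrated on chromosome X, which carries 11 of them and 6 *mrp* genes. Of these 17 genes 14 were tested and none was called, with log2 fold changes from -0.57 to 0.38. They lie in runs: *pgp-5*, *pgp-8*, *pgp-7* and *pgp-6* follow each other within 963 bases or less, as do *pgp-3* and *pgp-4* within 721 bases. Close copies can share reads, so the split of reads among them is uncertain. Levels in a run still differed. *pgp-6* averaged 19.5 RPKM and *pgp-5* averaged 9.01 RPKM in wild-type, and *pgp-7* averaged 0.360 RPKM and *pgp-8* averaged 0.808 RPKM in the same libraries.

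The 6 genes not tested were *pgp-7*, *pgp-8*, *pgp-15*, *abt-3*, *abt-6* and *haf-8*. *pgp-8* held 67, 114 and 94 reads in wild-type and 81, 64 and 109 reads in mutants, and the genotypes overlapped. *haf-8* held 3 reads in mutant replicate 1 and was at 0 in the other 5 libraries. *abt-6* held 5 reads in wild-type replicate 3 only. These genes were left out by the filter on RPKM. In the fit with no filter none of the 6 was called, with limma adjusted p of 0.70 or above.

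In the *mrp* subfamily all 8 genes were tested and none was called. *mrp-5* read 40.0, 37.5 and 41.1 RPKM in wild-type and 39.7, 37.5 and 41.7 RPKM in mutants, and the 95% interval of its log2 fold change was -0.24 to 0.24. Summed *mrp* RPKM was 118.8 ± 3.70 in wild-type and 118 ± 5.13 in mutants (SD, n = 3). Apart from *mrp-1*, *mrp-3* and *mrp-5*, the members ran from *mrp-8*, at 2.35 RPKM over the 6 libraries, to *mrp-7*, at 10.7 to 17.5 RPKM, with *mrp-7* lowest in mutant replicate 1. The log2 fold changes of *mrp-2*, *mrp-4*, *mrp-6*, *mrp-7* and *mrp-8* lay between -0.10 and 0.25. The median log2 fold change of the subfamily was -0.03. It was -0.22 after quantile normalization, -0.16 with equal library medians, 0.04 without mutant replicate 1 and 0.02 without both libraries that stand apart.

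In the *haf* subfamily 7 of 8 genes were tested and *haf-6* alone was called. The other 6 stayed between -0.08 and 0.13 on the log2 scale. *haf-1*, whose product exports peptides from mitochondria and acts in the mitochondrial unfolded protein response, read 2.43, 2.80 and 2.50 RPKM in wild-type and 2.76, 2.11 and 2.32 RPKM in mutants. *haf-2*, *haf-3* and *haf-7* were between 7.35 and 42.4 RPKM, and their genotypes overlapped. *haf-4* and *haf-9* encode partner proteins of the gut granule membrane. *haf-9* read 99.4, 124 and 120 RPKM in wild-type and 116, 115 and 118 RPKM in mutants, with a log2 fold change of 0.03 and a 95% interval of -0.24 to 0.30. Among 13 tested genes of gut granule formation, including trafficking genes, none was called, and their median log2 fold change was 0.06.

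The 5 *pmp* genes were all tested, showed no common direction, and none was called. *pmp-2* read 32.3, 36.5 and 32.7 RPKM in wild-type and 36.7, 25.8 and 25.5 RPKM in mutants. *pmp-3*, often used as a reference gene in quantitative PCR, read 20.9, 19.8 and 20.8 RPKM in wild-type and 18.0, 21.5 and 22.8 RPKM in mutants. *pmp-4*, which encodes a transporter of fatty acids into peroxisomes, read 20.1, 21.1 and 24.3 RPKM in wild-type and 23.2, 22.8 and 21.2 RPKM in mutants. The genotypes overlapped for all 3 of these, with limma adjusted p of 0.63 to 0.97. The 95% intervals of the log2 fold change were -0.28 to 0.30 for *pmp-3* and -0.24 to 0.32 for *pmp-4*.

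*pmp-1* and *pmp-2* lie on the same strand of chromosome II, 285 bases apart, and are close relatives. The pair was examined after their values were seen. Close copies can share reads, so the split of reads between *pmp-1* and *pmp-2* is uncertain. The ratio of *pmp-1* to *pmp-2* RPKM was 1.04, 1.04 and 1.05 in wild-type and 1.69, 1.88 and 1.75 in mutants. The ratio was nearly constant within a genotype, including the libraries that stand apart, and higher in every mutant library. Among other members next to each other, the ratio of *pgp-13* to *pgp-14* also did not overlap between genotypes. It was 0.332, 0.319 and 0.318 in wild-type and 0.190, 0.134 and 0.235 in mutants. The ratios of the remaining neighbouring pairs overlapped. How often such ratios separate the genotypes among other neighbouring genes was not measured. For single genes the share without overlap was 21.4% of all genes tested.

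Genes listed under peroxisomal β-oxidation were set beside the transporters. Of 13 listed genes 9 were matched by name, and all 9 were tested. The others, left out for lack of a settled name match, were not measured here. This list was chosen with earlier results of these data known, so its counts and median are a description and no test. Of the 9, 5 fell and 1 rose, with a median log2 fold change of -0.89. Over all genes tested, 0.816% fell and 3.32% rose. The listed genes that fell were *dhs-18*, *maoc-1*, *acox-3*, *daf-22* and *dhs-28*, and *ech-9* rose. *daf-22*, the thiolase of the pathway, stood at -1.47 on the log2 scale (limma adjusted p = 4.62e-04), beside 0.04 for the importer gene *pmp-4*. None of 11 peroxin genes, whose products build peroxisomes, was called, with a median of -0.41 and a lowest adjusted p of 0.15. For *pmp-5*, 19 genes of vitamin B12 handling and the methionine cycle gave no call and a median of -0.03.

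The 3 *abcf* genes were all tested, all had negative log2 fold changes and none was called. *abcf-2* had a log2 fold change of -0.11, with a 95% interval of -0.39 to 0.17, and mutant replicate 1 was its lowest library. *abcf-1* and *abcf-3* stood at -0.12 and -0.19, with limma adjusted p of 0.69 and 0.58, and were likewise lowest in mutant replicate 1. Summed *abcf* RPKM was 348 ± 16.2 in wild-type and 319 ± 34.3 in mutants (SD, n = 3), which overlapped. Beyond the named subfamilies, 6 further ABC genes were looked at: *ced-7*, *abce-1*, *abch-1*, *cft-1*, *hmt-1* and *abtm-1*. None was called, and their log2 fold changes ran from -0.17 to 0.33. Among 14 tested regulators of the xenobiotic response none was called either, with a median of 0.15 and a lowest limma adjusted p of 0.29.

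Several *wht* and *abt* genes were low in the libraries that stand apart, and none of the 9 *wht* or 4 tested *abt* genes was called. Summed *wht* RPKM was 47.2 ± 9.86 in wild-type and 46.4 ± 6.49 in mutants (SD, n = 3), and summed *abt* RPKM was 31.8 ± 1.42 and 40.1 ± 0.902, most of it from *abt-4*. *wht-2* was steady, at 14.74, 12.75 and 14.48 RPKM in wild-type and 13.02, 14.16 and 15.70 RPKM in mutants. By contrast 8 genes, picked after their values were seen, fell below 0.6 of the mean of wild-type replicates 1 and 3 in wild-type replicate 2. These were *wht-3*, *wht-4*, *wht-5*, *wht-6*, *wht-8*, *wht-9*, *abt-1* and *abt-5*, at 0.330 to 0.567 of that mean. They were 16.7% of the tested ABC genes, beside 11.6% of all genes tested. Mutant replicate 1 was the lowest mutant library for 7 of the 8, *wht-3* being the exception. Over all genes tested, deviations from the genotype mean in wild-type replicate 2 and mutant replicate 1 correlated at 0.42, so this count is not particular to these genes. The other 40 tested members were at 0.779 to 1.57 of the mean in wild-type replicate 2.

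*wht-4* shows the pattern, at 7.44, 3.07 and 6.34 RPKM in wild-type and 2.81, 4.27 and 6.18 RPKM in mutants. *abt-5* was alike, at 4.91, 1.78 and 4.69 RPKM in wild-type and 2.30, 3.49 and 4.44 RPKM in mutants. Without the libraries that stand apart, the log2 fold changes of the 8 genes lay between -0.36 and 0.18 and none was called.

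Sperm, germline and late-stage markers were each lowest, within a genotype, in the same libraries. The mean log2(RPKM + 1) of 8 sperm markers was 4.27, 3.22 and 4.14 in wild-type and 3.66, 3.87 and 4.27 in mutants, lowest in wild-type replicate 2. That of 10 germline markers was 4.69, 3.89 and 4.63 in wild-type and 3.64, 4.36 and 4.77 in mutants. For 8 adult cuticle and yolk genes it was 7.54, 5.597 and 7.40 in wild-type and 6.28, 6.598 and 6.62 in mutants, and none of the markers in these lists was called. In this last list wild-type replicates 1 and 3 were above every mutant library, and wild-type replicate 2 was below every one. A difference in stage between the genotypes was not tested. The part of these marker lists in the levels of the *wht* and *abt* genes was not tested either.

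**Figure D5:**
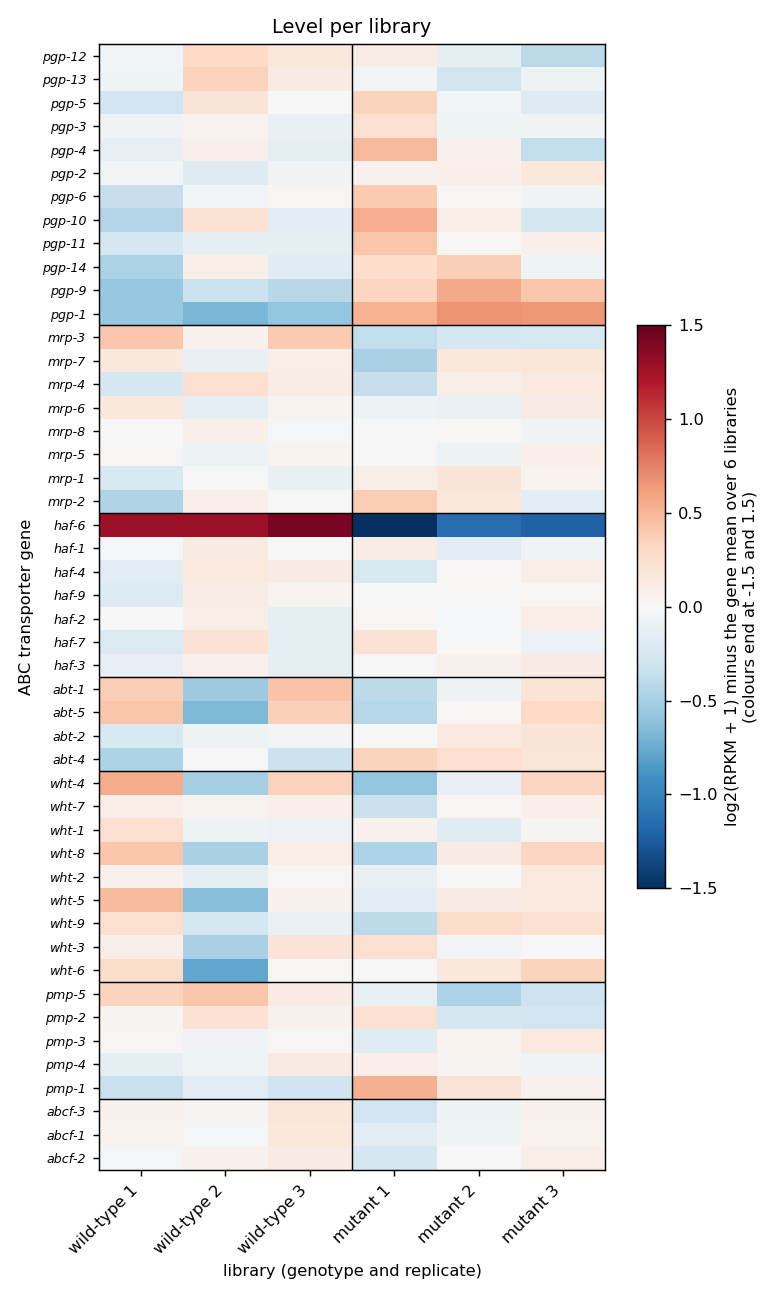
Level of the 48 tested ABC transporter genes in each library, as log2(RPKM + 1) minus the mean of that gene over the 6 libraries (red, higher and blue, lower, with colours ending at -1.5 and 1.5). *haf-6* splits by genotype, and *wht-4*, *abt-1* and *abt-5* are low in wild-type replicate 2 and mutant replicate 1.

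On the log2(RPKM + 1) scale, most of the family was measured closely enough to bound the differences. Of the 45 tested members without a call, 44 had a 95% interval of the log2 fold change within 1 of 0. The exception was *wht-4*, with an interval of -1.05 to 0.51. Since this scale understates changes of low genes, an interval within 1 of 0 does not bound the fold change in RPKM of low members. *wht-9*, for example, read 0.357, 1.17 and 1.09 RPKM in mutants and had an interval of -0.47 to 0.61. In all, 41 of the 48 tested members (85.4%) had an absolute log2 fold change under 0.5, beside 88.8% of all genes tested. The P-glycoprotein genes *pgp-1* and *pgp-9* and the single-unit transporter gene *haf-6* were the members outside these bounds that passed the adjusted threshold.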

How the data were processed

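The deposited file holds RPKM per gene and library and the authors' mean RPKM per genotype. The submitters' processing notes name build WBcel235, and the authors used CLC Genomics Workbench. Mapping settings and annotation version: not given in the sources used here. Members and comparison lists were chosen with earlier results of these data known.

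limma 3.58.1 (lmFit, eBayes with trend and robust, statmod 1.5.0, R 4.3.3) was fitted on log2(RPKM + 1) with genotype as the only term, for the 13965 genes that reached 1 RPKM in 3 or more libraries, and p was adjusted over all of them (Benjamini-Hochberg). Exact permutation of 3 against 3 libraries cannot give a two-sided p below 0.1. The fit was checked on simulated data with known changes. Reads were drawn independently with no library standing apart, so that check does not cover the error rate under the library structure seen here. Whole reads were recovered from the RPKM, within 0.01 reads, for 100.0% of the 19579 genes above 0. RPKM alone does not fix the reads of a gene when they share a factor over all libraries. Such reads were set to the multiple that put the implied length nearest the annotated exon length. That step touches only the printed reads and the limma voom fit. Recovered reads cover counting error only. Of the 54 members, 50 matched the Ensembl release 115 annotation and 4 RefSeq's table of the same build, and exons of 12 overlap those of another gene.

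Named members were those the study names, those called, those whose libraries did not overlap between genotypes, all *pmp* genes and the highest of each subfamily. Genes of the comparison lists were named where called, and further members to show a pattern. Alternatives were quantile normalization, equal library medians, no filter, at least 5 RPKM, pseudocounts of 0.1 and 0.5, a replicate block, limma voom on recovered reads, leaving out each library and both libraries that stand apart, and unadjusted p. Tables and figures used Python 3.11.15, pandas 2.3.3, numpy 2.4.6 and matplotlib 3.10.9.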

Additional observations from a re-analysis of the deposited data

How the results depend on the processing

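*haf-6*, *pgp-1* and *pgp-9* kept direction and call in all 15 alternative fits. The number of ABC genes called was 3, and it was 5 with quantile normalization, 5 with equal library medians, 5 with limma voom on recovered reads, 7 with both libraries that stand apart left out and 7 at an unadjusted p under 0.05. Over all genes 577 were called, 554 with quantile normalization, 537 with equal library medians and 581 with limma voom. It was 1300 without both libraries that stand apart and 1839 at the unadjusted p. Leaving out 1 library gave 3 to 5 ABC genes, 5 when wild-type replicate 2 was out and 4 when mutant replicate 1 was out, and 382 to 635 genes in all, with 382 without wild-type replicate 3. The cause of these changes was not tested.

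The medians of 4 subfamilies turned sign with the scaling: quantile normalization gave -0.07 for *haf*, -0.11 for *abt*, -0.21 for *wht* and -0.10 for *pmp*, against 0.03, 0.08, 0.03 and 0.01, and the *abt* median was 0.37 with at least 5 RPKM. The *abcf* median, -0.12, was -0.24 after quantile normalization and -0.25 with equal library medians. The median of all genes tested was -0.04 after quantile normalization, against 0.10. The labels do not say whether same-numbered libraries were handled as pairs. Their deviations from the genotype means correlated at -0.33, -0.16 and 0.34, which cannot settle this with 3 libraries per genotype. With the replicate block the ABC count was 3, and 396 genes were called in all. The smallest members are limited by depth: *haf-8*, *abt-6* and *pgp-15* held at most 7 reads in a library.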
